A study of Rattus norvegicus with 6 samples.

Results

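The 7 genes described here, Trem2, Tyrobp, Gpnmb, Spp1, Lgals3, Chi3l1 and Fabp5, are linked to lipid-associated macrophages, and they were followed in whole rat lung after inhaled particles. Their probes were found by gene name in the scanner files, which gave 8 of the 41012 probes on the array and 7 of the 24974 genes that passed the filter on low signal. The genes were selected with results of these same arrays known, the NiO comparisons among them, so their levels and differences are given as a description and carry no test. All 8 probes were well above background on 23 of 23 arrays, so the members' levels are all measured ones and no member was lost to the filter.

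The rats were male Wistar rats, aged 9 weeks, held in whole-body inhalation chambers for 6 hours on 5 days of each of 4 weeks. One set breathed an aerosol of ultrafine nickel oxide (Uf-NiO, NiO below), which the study named its positive control, another an aerosol of C60 fullerene, a cage-shaped carbon molecule, and the third clean air (control). RNA of the saline-perfused right lung was read on 1-colour arrays from 4 NiO, 2 C60 and 3 control lungs at 3 days after the last exposure and from 4 lungs of each kind at 33 days, called 1 month here. No group carried a transgene, a mutation or a second agent, and the measured tissue was the whole lung, not sorted macrophages. In such bulk samples more cells of a type and more RNA per cell cannot be told apart.

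TREM2 is a surface receptor of macrophages that binds lipids, lipoproteins and cell debris, and it signals through the adaptor TYROBP (DAP12), whose phosphorylated tail recruits the kinase SYK. In mouse and human tissues, macrophages that take up much lipid or debris show TREM2 together with the lysosomal glycoprotein GPNMB, the fatty acid carrier FABP5, galectin-3 (LGALS3) and often osteopontin (SPP1). In the lung, cells of this kind are known from fibrotic and particle-loaded tissue, and the chitinase-like protein CHI3L1 (YKL-40) is a secreted product of macrophages and epithelium in inflamed airways.

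Levels are log2 of the background-corrected signal minus the 75th percentile of the same array, so 0 is that percentile, a step of 1 is a 2-fold change, and levels of different probes are not set against each other. Between 57.4% and 78.3% of the spots of an array were well above background. The 2 C60 arrays at 3 days had the highest mean net signals over the negative control spots. These were 142.69 (array 1) and 64.4 (array 2), where all others had 24.3 to 40.8. Among the 3-day NiO arrays, arrays 2 and 3 stood apart on the first principal component of all genes (-107.9 and -113.2, against -33.7 and -1.0 for arrays 4 and 1). At 1 month control array 2 did so (-64.6, against -35.9 to -7.4 for the other controls). All 1-month NiO arrays (38.7 to 50.9) and C60 arrays (39.0 to 66.8) lay on the other side of 0 from all controls of that time. The tissue label was borne out by the surfactant-making alveolar type II cell, whose 8 markers were all well above background in every group (mean log2 level 6.24 to 7.02). Each of the 6 slides held 1 group and each time had its own scan day, so the slide cannot be told apart from the group, nor the scan day from the time.

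**Figure D1:**
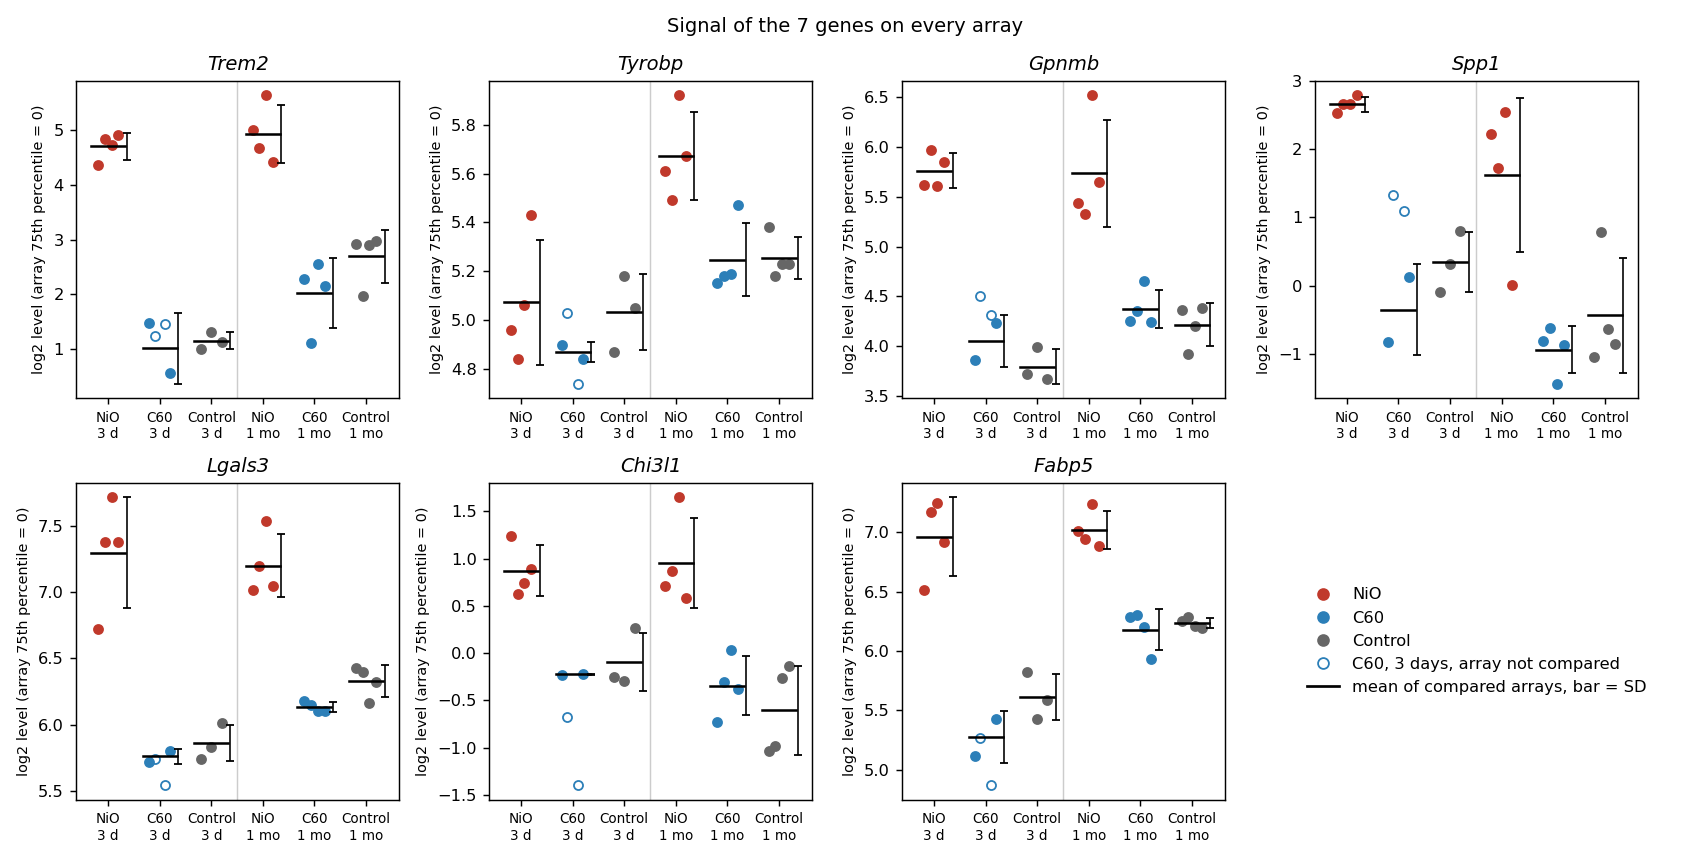
Log2 level of each of the 7 genes (vertical axis, 0 = the array's 75th percentile) on every array, by group, with NiO, C60 and control at 3 days to the left and at 1 month to the right of the grey line. Filled points are arrays in the comparisons, open points the 2 further C60 arrays of the 3-day slide, black lines group means and bars their SD. For Trem2 the NiO arrays lay between 4.36 and 5.64 and the highest control array at 2.98, while for Tyrobp the NiO and control arrays overlapped at 3 days.

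Trem2 differed most of the 7 genes at 3 days. At 1 month its order with Spp1 was not stable, since Spp1 differed more without NiO array 4 (2.61 against 2.41) and without control array 2 (2.48 against 2.00). Its probe lies at chr9:8059065-8059124 of the rat build rn4, on the minus strand. No annotation of that build was used here, so for none of the probes is the exon or UTR given. At 3 days Trem2 read 4.36, 4.84, 4.73 and 4.91 on the 4 NiO arrays, 1.47 and 0.55 on the C60 arrays, and 1.00, 1.31 and 1.13 on the control arrays. Every NiO array was thus more than 3 log2 units above every control array, and the C60 arrays lay on both sides of the controls. Mean levels were 4.71 ± 0.24 for NiO, 1.01 ± 0.65 for C60 and 1.15 ± 0.15 for control (SD, n = 4, 2 and 3). The NiO difference was 3.56 on the log2 scale (SE 0.34, 95% interval 2.84 to 4.28), an 11.8-fold higher level. The C60 difference of -0.14 had an interval from -1.0 to 0.72, and the number of arrays, 2 of them C60, limits its precision.

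At 1 month Trem2 read 5.00, 4.68, 5.64 and 4.42 on the NiO arrays, 2.28, 1.10, 2.56 and 2.14 on the C60 arrays, and 2.92, 1.97, 2.90 and 2.98 on the control arrays. The NiO arrays again stood clear of all others. The means were 4.93 ± 0.53, 2.02 ± 0.64 and 2.69 ± 0.48 (SD, n = 4 each), and the NiO difference was 2.24 (SE 0.32, interval 1.57 to 2.91), or 4.73-fold. Without control array 2, the low one, it was 2.00, and the C60 difference of -0.67 (interval -1.34 to 0.00) became -0.91. The smaller NiO difference at 1 month than at 3 days (by 1.32, SE 0.47) went with the level in clean air, which was 2.69 at 1 month and 1.15 at 3 days, a step of 1.54 (SE 0.34), while the NiO levels of the 2 times overlapped.

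Tyrobp, the adaptor without which TREM2 is not held at the surface, showed little of this. Its RefSeq probe (chr1:85369110-85369169, rn4, plus strand) read 4.96, 4.84, 5.06 and 5.43 on the NiO arrays at 3 days, 4.90 and 4.84 on the C60 arrays, and 4.87, 5.18 and 5.05 on the control arrays. The groups overlapped, and the NiO difference of 0.04 (SE 0.14, interval -0.25 to 0.33) was within the spread of the controls. Its sign turned with the scaling, to -0.08 with quantile normalization and -0.14 with arrays scaled to their median. At 1 month the NiO arrays read 5.61, 5.49, 5.92 and 5.67, above the C60 arrays (5.15, 5.18, 5.19 and 5.47) and the control arrays (5.38, 5.18, 5.23 and 5.23). The difference from control was 0.42 (SE 0.13, interval 0.15 to 0.68), 1.34-fold, and 0.01 when both probes of the gene were averaged.

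A second probe under the name Tyrobp, made from an expressed sequence tag, lies at chr1:85369042-85369101 and reads the opposite strand. It gave -0.33 and 0.11 on NiO arrays 2 and 3 at 3 days, against -2.22 and -1.84 on NiO arrays 1 and 4, -2.62 and -2.62 on C60 arrays and -2.54, -2.54 and -2.53 on control arrays. Both high values came from the 2 NiO arrays that stood apart over all genes. It reads the strand opposite to the RefSeq probe and was not used for the gene's level. Its NiO difference was 1.46 (SE 0.39) at 3 days and -0.39 (SE 0.36) at 1 month, opposite in sign to the RefSeq probe at the later time.

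The 250 bases before the transcription start of Trem2 are shown because the gene had the widest range of the 7, with capitals marking the one match to the letters searched. Those letters were the PU.1 core GAGGAAG, the MITF/TFE M-box CACATGA, the E-box TCACGTG and the AP-1 site TGANTCA, on both strands, and PU.1 and the MITF/TFE factors are known regulators of macrophage and lysosome genes. The sequence is from RefSeq on the build GRCr8, chr9:20151780-20152029, minus strand. It holds GAGGAAG, read on the reverse strand as CTTCCTC, 30 bases before the start.
Trem2 promoter: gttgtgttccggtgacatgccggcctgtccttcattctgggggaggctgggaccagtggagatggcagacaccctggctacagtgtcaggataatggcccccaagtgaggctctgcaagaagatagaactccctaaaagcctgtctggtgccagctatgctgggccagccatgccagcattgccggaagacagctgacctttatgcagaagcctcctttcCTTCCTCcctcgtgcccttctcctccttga
Of 33469 rat promoter windows of the same length, 10.2% held GAGGAAG, 3.07% CACATGA, 2.79% TCACGTG and 6.34% TGANTCA. These matches describe the letters only.

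Gpnmb encodes a transmembrane glycoprotein of lysosomes and melanosomes that is also shed from macrophages. Its probe (chr4:77182198-77182257, rn4, plus strand) read 5.62, 5.97, 5.61 and 5.85 on the NiO arrays at 3 days, 3.86 and 4.23 on the C60 arrays, and 3.72, 3.99 and 3.67 on the control arrays. NiO stood more than 1 log2 unit above both other groups, and the difference from control was 1.97 (SE 0.22, interval 1.5 to 2.44), 3.92-fold. At 1 month the NiO arrays read 5.44, 5.33, 6.52 and 5.65, the C60 arrays 4.25, 4.35, 4.65 and 4.24, and the control arrays 4.36, 3.92, 4.20 and 4.38. The difference was 1.52 (SE 0.21, interval 1.09 to 1.95), 2.87-fold, and 1.26 without NiO array 3. For C60 the differences were 0.25 (interval -0.31 to 0.81) at 3 days and 0.16 (interval -0.27 to 0.59) at 1 month.

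The Gpnmb promoter is set beside that of Trem2 because it held matches to 3 of the 4 motifs. It lies at chr4:79340878-79341127 of GRCr8, plus strand, from RefSeq. In capitals stand GAGGAAG 181 bases, TGAGTCA 87 bases and CACATGA 22 bases before the start.
Gpnmb promoter: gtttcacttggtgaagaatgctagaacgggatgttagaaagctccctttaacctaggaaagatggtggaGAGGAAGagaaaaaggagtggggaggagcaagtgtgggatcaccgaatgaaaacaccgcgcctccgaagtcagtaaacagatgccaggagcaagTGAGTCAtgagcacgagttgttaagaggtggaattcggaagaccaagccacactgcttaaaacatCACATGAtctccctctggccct
Promoter windows of Spp1 and Chi3l1 held none of the 4 motifs, and the tables matched 4 of the 7 members.

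Spp1 encodes osteopontin, a secreted phosphoprotein that binds CD44 and integrins and recruits macrophages. It is read by 10 spots of 1 probe (chr14:6422382-6422441, rn4, minus strand), shown here with that of Chi3l1 because these secreted products differed in how far their arrays spread.
Spp1 probe: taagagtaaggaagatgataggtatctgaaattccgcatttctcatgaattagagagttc
Chi3l1 probe: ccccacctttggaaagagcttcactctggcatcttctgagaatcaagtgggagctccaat
At 3 days Spp1 read 2.53, 2.66, 2.66 and 2.79 on the NiO arrays, -0.83 and 0.12 on the C60 arrays, and -0.09, 0.32 and 0.80 on the control arrays. The NiO arrays were the closest together of any group for this gene (SD 0.10), and all lay above the controls, by 2.32 (SE 0.50, interval 1.28 to 3.37) or 5.00-fold. At 1 month 3 NiO arrays read 2.22, 1.73 and 2.55 and array 4 read 0.01, against -0.81, -0.63, -1.44 and -0.88 for C60 and -1.05, 0.79, -0.64 and -0.86 for control. Here NiO and control overlapped, through NiO array 4 and control array 2. The difference of 2.07 (SE 0.46, interval 1.10 to 3.03), 4.19-fold, was 2.61 without NiO array 4 and 2.48 without that control array.

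Lgals3 encodes galectin-3, a lectin that marks damaged lysosomes and is released by macrophages, and its probe lies at chr15:23338947-23339006 (rn4, plus strand). At 3 days it read 6.72, 7.38, 7.72 and 7.38 on the NiO arrays, 5.72 and 5.80 on the C60 arrays, and 5.74, 5.83 and 6.01 on the control arrays. NiO array 1 was the lowest of its group and still above every control. The difference was 1.44 (SE 0.17, interval 1.08 to 1.81), 2.72-fold, and 1.19 without NiO arrays 2 and 3. At 1 month it read 7.02, 7.20, 7.54 and 7.05 on the NiO arrays, 6.18, 6.15, 6.10 and 6.10 on the C60 arrays, and 6.43, 6.40, 6.16 and 6.32 on the control arrays, a NiO difference of 0.88 (SE 0.16, interval 0.54 to 1.21). As for Trem2, the control level at 1 month was higher than at 3 days (by 0.47, SE 0.17), and the NiO levels of the times overlapped.

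Chi3l1, the chitinase-like protein without enzyme activity, has its probe at chr13:47146100-47146159 (rn4, plus strand). It read 1.24, 0.62, 0.74 and 0.89 on the NiO arrays at 3 days, -0.23 and -0.22 on the C60 arrays, and -0.25, -0.30 and 0.26 on the control arrays. At 1 month the NiO arrays read 0.71, 0.87, 1.65 and 0.58, the C60 arrays -0.73, -0.31, 0.03 and -0.38, and the control arrays -1.04, -0.98, -0.26 and -0.14. NiO arrays lay above all control arrays at both times. The difference was 0.97 (SE 0.27, interval 0.40 to 1.54) at 3 days and 1.56 (SE 0.25, interval 1.03 to 2.08) at 1 month, 1.96-fold and 2.94-fold. It was 1.33 at 1 month without NiO array 3.

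Fabp5, the epidermal fatty acid binding protein, carries fatty acids inside the cell. Its probe is placed on unassigned sequence (chrUn:41847300-41847359, rn4, minus strand). At 3 days it read 6.51, 7.17, 7.25 and 6.92 on the NiO arrays, 5.12 and 5.43 on the C60 arrays, and 5.82, 5.43 and 5.59 on the control arrays. At 1 month it read 7.01, 6.94, 7.24 and 6.88 on the NiO arrays, 6.29, 6.30, 6.20 and 5.93 on the C60 arrays, and 6.25, 6.29, 6.21 and 6.19 on the control arrays. The NiO arrays stood clear of the controls at both times, by 1.35 (SE 0.16, interval 1.02 to 1.68) and 0.78 (SE 0.15, interval 0.48 to 1.09). The control level was 0.62 (SE 0.16) higher at 1 month than at 3 days. C60 lay 0.34 below control at 3 days (interval -0.73 to 0.06) and 0.05 below at 1 month (interval -0.36 to 0.25).

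**Figure D2:**
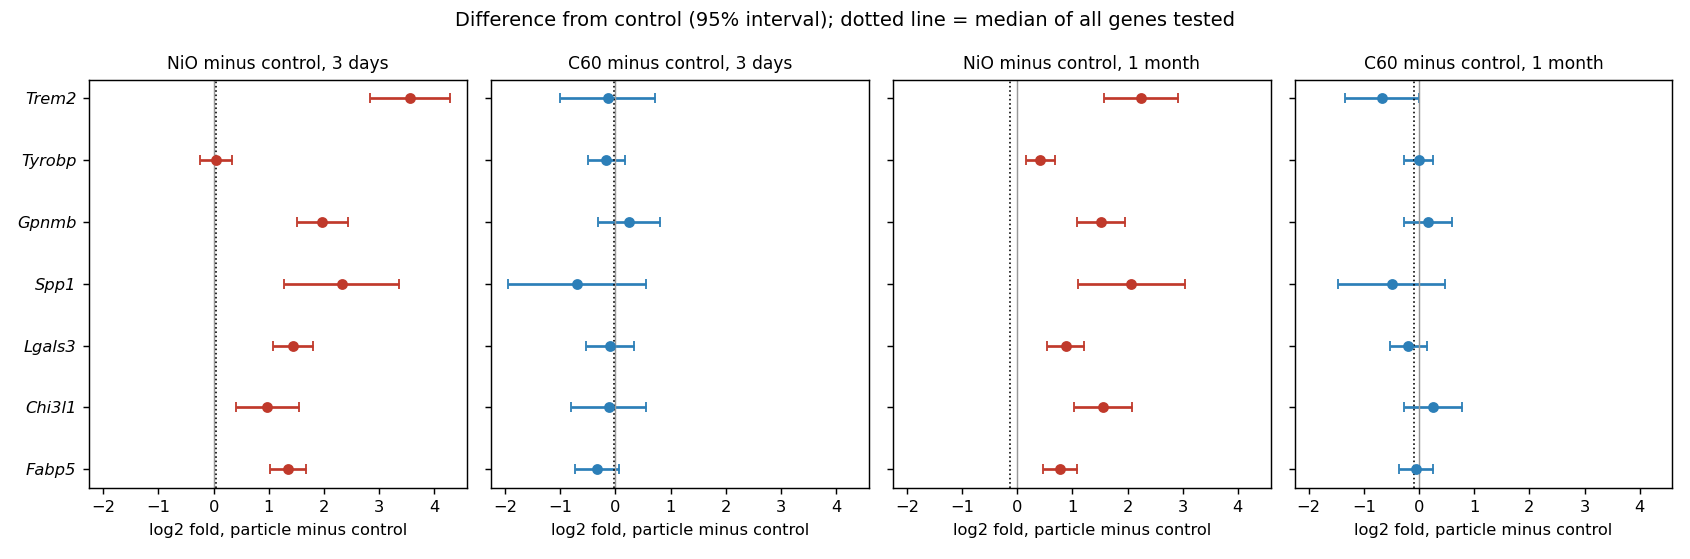
Log2 fold of each gene (points, with 95% intervals as bars) in NiO and C60 minus control at 3 days and at 1 month. The dotted line is the median of all 24974 genes. The NiO points run from 0.04 (Tyrobp) to 3.56 (Trem2) at 3 days and from 0.42 to 2.24 at 1 month, while the C60 points lie between -0.70 and 0.26.

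A gene was called where its adjusted p over all genes was under 0.05 in limma. For NiO at 3 days 6 of the 7 members were called higher and 0 lower, Tyrobp being the exception, where 11.1% of all genes were called higher and 7.86% lower. Every NiO array lay above every control array for the same 6 members, as it did for 12.8% of all genes. At 1 month 7 of 7 were called higher, where 11.9% of all genes were called higher and 18.9% lower, and 6 had no overlap with the controls (15.2% of all genes), Spp1 being the exception. Since the members were picked from these comparisons, nothing is read from these counts. Their median log2 fold was 1.44 at 3 days and 1.52 at 1 month, against 0.04 and -0.12 for all genes. The all-gene median depended on the scaling: it was -0.04 and 0.01 with quantile normalization and -0.13 and 0.21 when arrays were scaled to their median. Relative to the median of all genes the NiO difference of Trem2 was 3.52 at 3 days and 2.37 at 1 month, and that of Tyrobp was 0.54 at 1 month. The same scalings moved the share of calls that were higher, from 58.5% for NiO at 3 days to 45.8% (quantile) and 34.7% (median), and from 38.7% at 1 month to 55.4% and 77.4%.

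For C60 no member was called in either direction at 3 days or at 1 month by limma, and 0 of 7 reached an unadjusted p under 0.05 at either time. The shares of all genes were 2.94% higher and 1.99% lower at 3 days, and 7.29% higher and 12.4% lower at 1 month. In no member did all C60 arrays lie above all control arrays, against 20.3% and 11.3% of all genes, the first share resting on 2 C60 arrays. Median folds of the members were -0.14 at 3 days and -0.05 at 1 month, against -0.03 and -0.09 for all genes. With arrays scaled to their median the 1-month value was 0.25 for the members and 0.22 for all genes, so its sign depends on the scaling. The widest intervals were those of Spp1, -1.95 to 0.55 at 3 days and -1.47 to 0.47 at 1 month. Set directly against each other, NiO was above C60 for Trem2 by 3.70 (SE 0.39) at 3 days and 2.91 (SE 0.32) at 1 month and for Tyrobp by 0.20 (SE 0.15) and 0.42 (SE 0.13), with the other members between 0.84 and 3.02.

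The change of the NiO difference between the times (1 month minus 3 days) was -1.32 (SE 0.47) for Trem2, -0.57 (SE 0.24) for Lgals3 and -0.57 (SE 0.21) for Fabp5. For Gpnmb and Spp1 it was -0.45 (SE 0.30) and -0.25 (SE 0.68), and for Tyrobp and Chi3l1 it was 0.38 (SE 0.19) and 0.59 (SE 0.37). In the authors' deposited table, rebuilt here only with arrays scaled to their median and of unknown centring, the ratio of NiO to control was 10.3 at 3 days and 5.47 at 1 month for Trem2. For Spp1 the authors' deposited table gave 4.49 and 7.0, the higher value at 1 month, where the fit above gave a change of -0.25 with an SE of 0.68. The deposited values were rebuilt against the median of the controls, where the fit used their mean, so both the scaling and the baseline differ. The authors' deposited table gave 0.881 and 1.75 for Tyrobp, 1.97 and 3.84 for Chi3l1, 3.71 and 3.74 for Gpnmb, 2.45 and 2.27 for Lgals3, and 2.24 and 2.18 for Fabp5.

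Lungs of one group were not alike in these genes. NiO array 3 at 1 month was the highest of its group for 7 of 7 members, and NiO array 4 the lowest for 4. At 3 days NiO array 1 was the lowest of its group for 4 members (Trem2, Spp1, Lgals3 and Fabp5) and the highest for Chi3l1. After the group means were taken out, Pearson's r with Trem2 over the 21 arrays was 0.49 for Gpnmb, 0.39 for Tyrobp, 0.36 for Chi3l1, 0.26 for Lgals3, 0.05 for Fabp5 and -0.10 for Spp1. The arrays share slides and scaling, and these values are a description.

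Markers of several cell types moved with NiO. Calls among them stand beside 11.1% of all genes called higher and 7.86% lower at 3 days, and 11.9% and 18.9% at 1 month. All 15 markers of macrophages and monocytes were measured, and Cd163 alone was not well above background on every array (2 of 4 NiO and 1 of 2 C60 arrays at 3 days, 3 of 4 NiO and 2 of 4 control arrays at 1 month). Their mean log2 level was 1.91 to 2.05 on NiO arrays, 1.70 on both C60 arrays and 1.61 to 1.66 on control arrays at 3 days. At 1 month it was 1.61 to 2.05, 1.59 to 1.71 and 1.45 to 1.63 in the same order of groups, with 2.05 on NiO array 3 and 1.61 on NiO array 4. Limma called 5 of the 15 macrophage markers higher after NiO at 3 days (Cd68, C1qa, C1qb, Ms4a7 and Ctss) and 4 at 1 month (Cd68, Csf1r, Cd14 and Mertk), leaving 10 and 11 not called higher. None was called lower at either time, where 1 at 3 days and 0 at 1 month were lower at an unadjusted p under 0.05. The 3-day call of Ctss was lost with only NiO and control fitted, where another of its probes was taken. Of 8 measured markers of resident alveolar macrophages, Vsig4 and Fbp1 fell at both times and Plet1 (3 days) and Pparg (1 month) rose. Vsig4 was well above background on 1 of 4 NiO arrays at 3 days and on 0 of 4 at 1 month. After the group means were taken out, r with the mean of the 15 macrophage markers ran from 0.32 (Fabp5) to 0.61 (Spp1) among the members. Over the other 6 resident markers, a grouping made after the values were seen, the mean log2 fold was 0.48 at 3 days and 0.25 at 1 month. Neutrophil markers averaged -0.78 to -0.31 on NiO arrays and -1.26 to -0.73 on control arrays at 3 days, and -1.64 to -0.33 and -1.55 to -1.06 at 1 month, where NiO array 3 was the highest (-0.33) and array 4 the lowest. Alveolar type II markers averaged 6.55 to 7.02 on NiO arrays and 6.42 to 6.53 on control arrays at 3 days, without overlap, with 2 of 8 called higher at 3 days and 3 at 1 month. Endothelial markers averaged 1.80 to 2.15 on NiO arrays and 2.31 to 2.41 on control arrays at 3 days, with 3 of 7 called lower. At 1 month 2 were called lower, and the averages overlapped (1.68 to 1.75 on NiO and 1.65 to 1.89 on control arrays). The part of these cells in the members' differences was not tested.

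**Figure D3:**
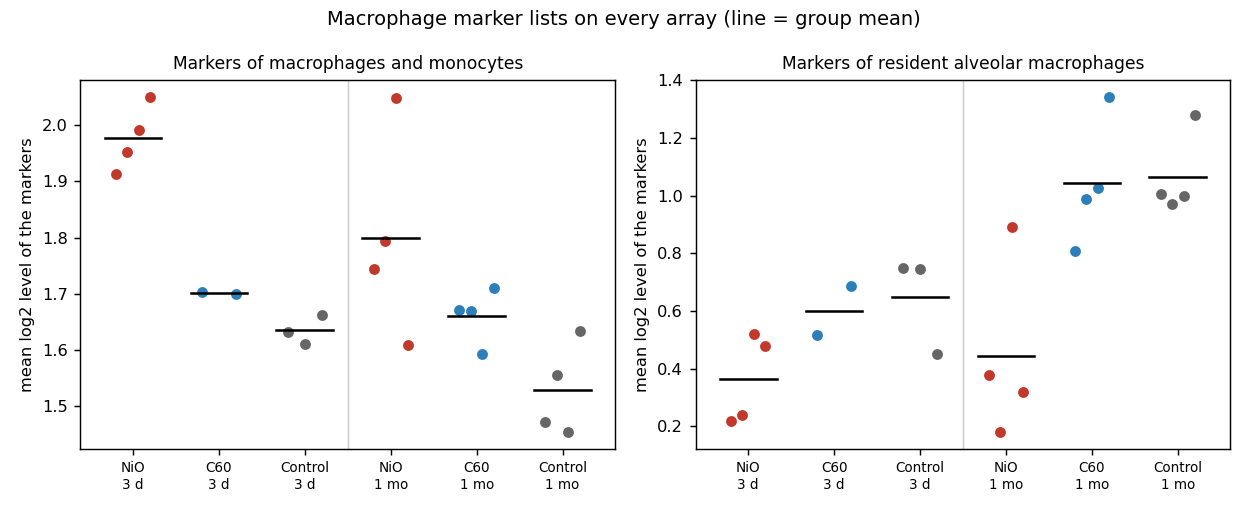
Mean log2 level of 15 markers of macrophages and monocytes (left) and 8 of resident alveolar macrophages (right) on every array, by group, with black lines for group means. The general markers read 1.91 to 2.05 on NiO arrays at 3 days and 2.05 on NiO array 3 at 1 month. Those of resident cells, with Vsig4 and Fbp1 the 2 called lower, averaged 0.36 after NiO and 0.65 in control at 3 days, and 0.44 and 1.06 at 1 month.

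Many other genes of lipid-associated macrophages rose after NiO. The gene lists used from here on were chosen with earlier results of these data known. Their counts and adjusted p-values are therefore no independent support for the members' pattern. Of 36 measured genes of a list of 40, limma called 18 higher and 1 lower at 3 days. At 1 month it called 20 higher and 2 lower. Of all genes 11.1% were called higher and 7.86% lower at 3 days, and 11.9% and 18.9% at 1 month. Median folds of the 36 were 0.56 and 0.68, against 0.04 and -0.12 for all genes. Over the 97 measured genes of all 5 lists, 25 were called higher at 3 days and 39 at 1 month, 18 of them at both times, and the 3-day count was 18 without NiO arrays 2 and 3, 13 with arrays scaled to their median and 7 when only NiO and control were fitted. Mmp12, the macrophage elastase, rose by 6.43 at 3 days (SE 0.61, n = 4 and 3; adjusted p = 2.89e-06) and by 3.22 at 1 month (SE 0.57, n = 4 and 4; adjusted p = 0.00109), the 1-month value being 2.36 without NiO array 3. Atp6v0d2, a proton pump subunit made by macrophages and osteoclasts, rose by 3.92 (adjusted p = 2.98e-07) and 2.33 (adjusted p = 7.51e-05). Lilrb4, an inhibitory receptor of myeloid cells, rose by 1.91 at 3 days (SE 0.45; adjusted p = 0.0082), a call lost without NiO arrays 2 and 3 (1.68, adjusted p = 0.0904).

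Several genes of that list encode lysosomal enzymes. At 3 days Ctsd, an aspartic protease, rose by 1.32 (SE 0.15; adjusted p = 1.66e-05), and the cysteine proteases Ctsk and Ctss by 1.11 and 0.99. At 1 month Ctsz rose by 1.42 (SE 0.22; adjusted p = 0.000437), Pld3, a lysosomal nuclease of the phospholipase D family, by 1.43, and the actin-capping protein gene Capg by 1.26. Apoe, the lipid carrier and a ligand of TREM2, was the 1 gene that fell at 3 days (-0.73, adjusted p = 0.007), and Csf1 and Ctsl fell at 1 month (-0.50 and -0.37). These 3 were named after their values were seen. The difference of Ctss at 3 days depended on which of its kept probes was taken. With only the NiO and control arrays fitted, another of its probes was taken, which gave 0.51 and was not called (adjusted p = 0.0826). The mean of its kept probes in the main fit gave 0.75 (adjusted p = 0.00302).

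Signalling partners of TREM2 and TYROBP were called more often at 1 month (8 of 15 higher and 1 lower) than at 3 days (2 higher and 1 lower). The difference of these counts was not tested. Of all genes 11.9% were called higher and 18.9% lower at 1 month, and 11.1% and 7.86% at 3 days. For the kinase gene Syk the NiO effect at 1 month minus that at 3 days was 0.81 (adjusted p = 0.0109, limma). It was 0.99 for the exchange factor gene Vav1 (adjusted p = 0.00206) and 0.82 for the adaptor gene Card9 (adjusted p = 0.00399). For Lat2 it went the other way (-0.705, adjusted p = 0.0216), and 9372 of 24974 genes were called in this comparison. Syk, Vav1 and Card9 were also called higher after C60 at 1 month (0.44, 0.41 and 0.42). The 2 higher at 3 days were the kinase gene Btk (0.57) and the related receptor gene Trem1 (0.76). Pik3r1, the regulatory subunit of phosphoinositide 3-kinase, fell by 1.20 at 3 days (SE 0.32; adjusted p = 0.018). Its probe was well above background on 2 of 4 NiO arrays, and it was not called without NiO arrays 2 and 3 (-0.55, adjusted p = 0.223), without NiO array 2 (adjusted p = 0.0531), without control array 3 (adjusted p = 0.0753) or with only NiO and control fitted (adjusted p = 0.171). With normexp background correction it was -0.36. Lat2 was the 1 that fell at 1 month (-0.49). Among receptors of the secreted members, 3 of 13 rose at 3 days (Cd44 0.44, Itga5 0.63 and Cd6 0.61) and 2 at 1 month (Cd44 0.43 and Mertk 0.45), beside 11.1% and 11.9% of all genes called higher. CD44 is a receptor of osteopontin. The genes of these counts of 5 or fewer were named after their values were seen.

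Close relatives of the members were called at 1 month about as often as genes in general (11.9% higher and 18.9% lower). Of 13 measured genes, 0 were called higher at 3 days (1 at an unadjusted p under 0.05) and 1 lower (Dspp, -0.78, with 1 of 4 NiO arrays above background), and at 1 month 1 was higher (Chid1, 0.46) and 4 lower by limma. Those were Ibsp, bone sialoprotein (-1.89, SE 0.56, adjusted p = 0.019, with 2 of 4 NiO arrays above background), Lgals2, galectin-2 (-1.34, SE 0.27, adjusted p = 0.00227), Dspp (-0.79) and Lgals7 (-0.58). The call of Ibsp was lost with quantile normalization (-1.40, adjusted p = 0.0706) and with only NiO and control fitted (adjusted p = 0.0922), and its difference was -1.14 without NiO array 3 and -0.64 with normexp background correction. Of 20 transcription factors known to act on such genes, 2 rose and 2 fell at 3 days, a share near that of all genes (11.1% higher and 7.86% lower), and 8 rose and 1 fell at 1 month. Bhlhe41, a repressor of the basic helix-loop-helix family, rose by 1.54 (SE 0.18; adjusted p = 3.17e-05) and 1.43 (SE 0.17; adjusted p = 6.67e-05). With the mean of its kept probes the 3-day value was lower, at 1.11 (adjusted p = 0.00121). The others at 3 days were Spi1, which encodes PU.1 (0.58), and the falling Cebpb (-0.81) and Nr1h2 (-0.79), and Stat3 was the 1 that fell at 1 month (-0.41).

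**Figure D4:**
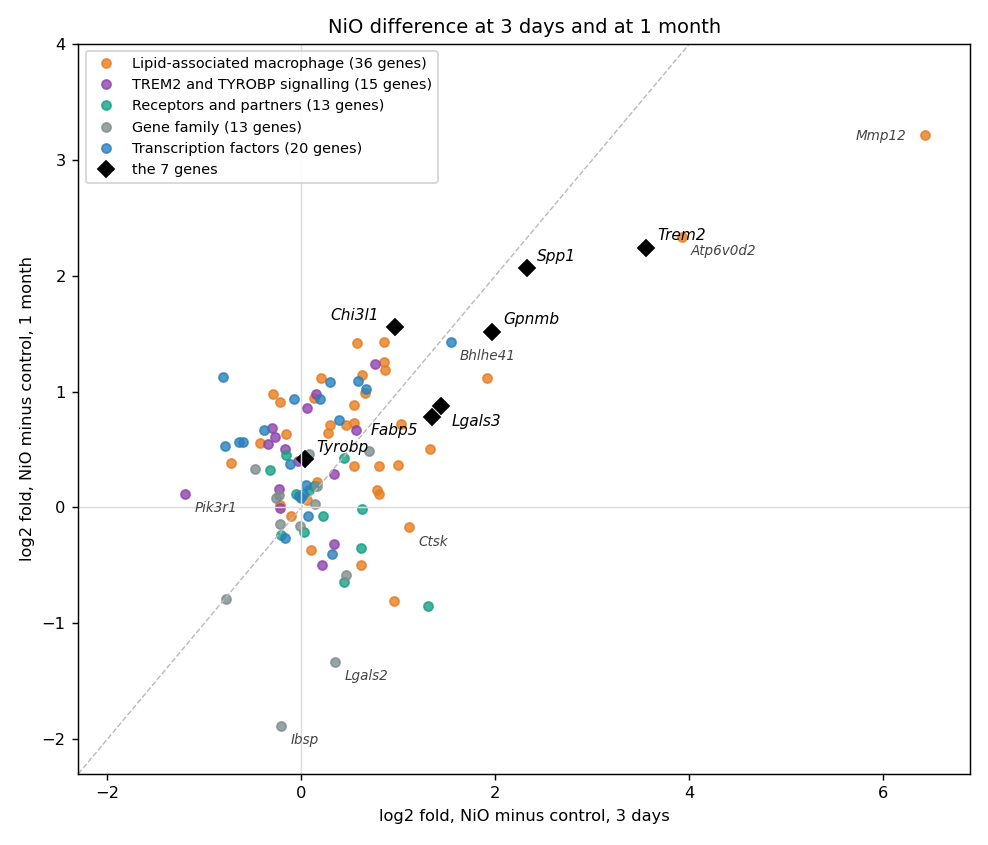
Log2 fold of NiO minus control at 3 days (horizontal) and at 1 month (vertical) for the 7 genes (black diamonds) and 97 genes of 5 related lists (circles, coloured by list), with equal folds on the dashed line. Mmp12 (6.43 and 3.22) and Atp6v0d2 (3.92 and 2.33) lie beyond Trem2 (3.56 and 2.24), and Tyrobp (0.04 and 0.42) lies among the genes with small differences.

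After C60 at 3 days limma called 1 of the 97 genes of the lists higher and 2 lower, beside 2.94% and 1.99% of all genes. They were Pik3cd, a catalytic subunit of phosphoinositide 3-kinase (1.18, SE 0.27, adjusted p = 0.0145), the transcription factor gene Cebpb (-0.86, SE 0.22, adjusted p = 0.0303) and Dspp (adjusted p = 0.00795), which was well above background on 0 of 2 C60 arrays and is bounded only as at least 1.002-fold lower. Each of the 3 calls was lost without C60 array 1 (adjusted p = 0.173, 0.234 and 0.0943). At 1 month 11 of 97 were called higher and 5 lower, beside 7.29% and 12.4% of all genes, and 36 were higher with arrays scaled to their median. Furthest down were Lgals2 (-1.0, adjusted p = 0.0173), the fatty acid receptor gene Cd36 (-0.97, adjusted p = 0.0349), Dspp (-0.86) and Atp6v0d2 (-0.86, adjusted p = 0.0416). With normexp background correction Lgals2 (-0.42, adjusted p = 0.0884) and Dspp (-0.14, adjusted p = 0.5) were not called. The higher ones included 5 of 15 signalling partners (Syk, Plcg2, Vav1, Inpp5d and Card9, 0.41 to 0.65). Cd36 lost its call without C60 array 1, 2 or 3 or control array 1, 2 or 4 (adjusted p = 0.0511 to 0.0903), and Atp6v0d2 without C60 array 1, 2 or 4 or control array 1, 3 or 4 (adjusted p = 0.0604 to 0.101). The count of 11 was 6 without C60 array 1 or array 2 and 4 without C60 array 3 or control array 2. Of the 36 genes of lipid-associated macrophages limma called 0 at 3 days, where 1 was higher and 1 lower at an unadjusted p below 0.05. At 1 month 1 of the 36 was called higher (Npc2, 0.63) and 2 lower (Cd36 and Atp6v0d2), beside 7.29% and 12.4% of all genes. At an unadjusted p below 0.05, 8 of them were higher and 5 lower at that time.

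By the rule used, likeness to Trem2 was Pearson's r of log2 levels over the 21 arrays, which share groups, slides and scaling, so it mostly orders genes by how they separate NiO from the rest. Among 24973 genes Atp6v0d2 came first (0.95), and of the members Lgals3 was rank 2 (0.93), Gpnmb 3 (0.93) and Fabp5 16 (0.91). Chi3l1 (0.76) was rank 238, Spp1 (0.71) 376 and Tyrobp (0.56) 999. Besides Atp6v0d2 and Mmp12 (0.90), the 10 named genes nearest to Trem2 were Bhlhe41, Stra6l, Slamf9, Akr1b8, Ccnb1, Smpdl3a, Myo5a and C4bpa, with r from 0.91 to 0.92. Akr1b8, an aldo-keto reductase, had log2 folds after NiO of 1.75 at 3 days and 1.48 at 1 month, Smpdl3a, an acid sphingomyelinase-like phosphodiesterase, 1.43 and 1.25, and C4bpa, a complement regulator, 1.81 and 1.12. After C60 the folds of these 10 genes lay between -0.99 and 0.30.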

How the data were processed

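Lungs of the 6 groups were measured on 1-colour Agilent arrays (Cy3). Per the file headers, Feature Extraction 9.5.3.1 (protocol GE1-v5_95_Feb07, grid of build rn4) extracted the spots, and the deposited processed intensity of a spot is what remains after subtraction of background and removal of a spatial trend. The authors' deposited table holds a linear ratio per probe and group, with steps not given in the sources used here. Dividing arrays by their median and by the median of the controls of the same time rebuilt it, which settled its scale and direction (particle over control) but not its centring. Its column medians were 0.986 (NiO), 1.038 (C60) and 1.006 (control) at 3 days and 1.133, 1.125 and 0.997 in that order at 1 month.

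The C60 label at 3 days gave n = 2 beside 4 scanner files. Arrays 1 and 2 rebuilt the deposited column (median absolute log2 difference 0.00082) and all 4 did not (0.109), so 21 of 23 arrays were compared. The labels' n and design text were taken to mean 1 rat an array, and p-values measure the spread between arrays.

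Control spots and spots marked as outliers were left out, marked spots only where a probe had others. Processed signals were put on the log2 scale, the 75th percentile of the array was subtracted, and spots of a probe were averaged. Probes stayed in if all arrays of 1 or more groups had them well above background (28676 of 41012), and a gene took its brightest kept probe, with symbols updated through the GRCr8 gene table by accession, symbol or older symbol. Of 24974 genes, 13545 had a symbol. One limma fit (R 4.3.3, limma 3.58.1, lmFit and eBayes) held all 6 groups with 15 residual degrees of freedom, and genes were called at a Benjamini-Hochberg adjusted p under 0.05 over all genes. The fit was tested on simulated data.

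The members and the gene lists were chosen with earlier results of these data known. From the 5 lists the text names the 8 called genes with the largest absolute fold in each NiO comparison, up to 4 in each C60 comparison, and the 10 named genes most correlated with Trem2. List genes without a match (Itgax, Clec7a, Cst7, Plin2, Hcst, Sirpb1, Siglec1, Cd300lb, Itga9 and Trem3) were not analysed here. Alternatives were normexp background with offset 50, quantile and median scaling, other filters, all 4 C60 arrays, the mean of a gene's probes, the other probe, only the groups compared, the deposited ratios, and leaving out arrays.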

Additional observations from a re-analysis of the deposited data

Results flagged for a closer look

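Among the 28 sets of 4 arrays (7 genes in 4 groups), 2 had 1 array far from the rest, where chance gives about 1 in 20. Trem2 read 1.97 on control array 2 at 1 month, against 2.90 to 2.98 on the other controls, and Tyrobp read 5.47 on C60 array 4 at 1 month, against 5.15 to 5.19 on the other C60 arrays.

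C60 arrays 3 and 4 at 3 days, which entered no comparison, averaged 4.41 for Gpnmb, above the controls at 3.67 to 3.99. For Spp1 they averaged 1.21, above the controls at -0.09 to 0.80. Other members went the other way. Chi3l1 read -0.68 and -1.40, below the controls at -0.30 to 0.26, and Fabp5 5.27 and 4.87, below the controls at 5.43 to 5.82. Lgals3 read 5.74 and 5.54, against controls at 5.74 to 6.01. Trem2 (1.23 and 1.46) and Tyrobp (5.03 and 4.74) overlapped or neared their controls.

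For 8 related genes among those named for their NiO folds, the NiO effect differed between the times (1 month minus 3 days, limma interaction). In that comparison 9372 of 24974 genes were called, and the scan day cannot be told apart from the time. Further list genes were called in it, such as Cebpb (1.94, adjusted p = 0.000111) and Csf1 (-1.115, adjusted p = 0.00159). The 8 are thus not the full set. Smaller at 1 month were the effects on Mmp12 (-3.21, adjusted p = 0.00913), Atp6v0d2 (-1.59, adjusted p = 0.00954), Ctsd (-0.82, adjusted p = 0.00746), Ctsk (-1.28, adjusted p = 0.00377) and Ctss (-0.62, adjusted p = 0.0294). The difference was -1.69 for Lgals2 (adjusted p = 0.00563), whose effect was -1.34 at 1 month and 0.35 at 3 days. It was 1.31 for Pik3r1 (adjusted p = 0.028) and 0.84 for Ctsz (adjusted p = 0.0469).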

How the results depend on the processing

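The members' median NiO difference kept its sign throughout, at 1.30 to 1.63 (3 days) and 1.26 to 1.62 (1 month) when 1 array was left out, and it was 1.19 at 3 days without NiO arrays 2 and 3. Median scaling gave 1.26 (3 days) and 1.86 (1 month), the deposited ratios 1.29 and 1.90, and normexp background 1.38 and 1.25. The count of members called higher after NiO ran from 5 to 7 at 3 days and from 6 to 7 at 1 month, and none was called after C60 under the settings run. The C60 median at 3 days (-0.14) was -0.17 from the deposited ratios and -0.21 to -0.12 without 1 array. At 1 month (-0.05) it was 0.25 with median scaling, 0.25 from the deposited ratios, -0.19 with the mean of a gene's probes and -0.09 to -0.03 without 1 array. Related genes called higher after NiO at 3 days (25) numbered 13 with median scaling, 7 with only the groups compared and 17 to 29 without 1 array. At 1 month (39) they numbered 61 with median scaling and 34 to 39 without 1 array. After C60 at 3 days (1) they numbered 3 with quantile normalization, 4 with all 4 C60 arrays, 0 with median scaling (limma, 7 at an unadjusted p under 0.05) and 0 to 1 without 1 array (4 unadjusted without C60 array 1, 5 without control array 1). After C60 at 1 month (11) they numbered 36 with median scaling, 4 with only the groups compared and 4 to 13 without 1 array. Over all genes, 2771 were called higher after NiO at 3 days, against 1671 with median scaling, 999 without NiO arrays 2 and 3 and 570 with only the groups compared. At 1 month 2979 were called higher after NiO and 1820 after C60, against 7605 and 6654 with median scaling. The other probe of Tyrobp gave -0.39 after NiO at 1 month, against 0.42, and the cause was not tested. The causes of the other changes were not tested. No paired analysis was possible because each labelled sample is a whole group and its arrays carry only slide positions.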
